A study of Rattus norvegicus with 3 samples.

Results

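The genes described here are fibronectin (Fn1) and 9 genes of matricellular proteins, which are tenascin C (Tnc), the thrombospondins Thbs1, Thbs2 and Comp, osteopontin (Spp1), periostin (Postn), Sparc, Ccn1 and Ccn2. They were chosen by name, and their probes were found through the RefSeq accession that the array files give for each spot. All 10 had a probe on at least 1 array, out of 15287 genes that could be named on any of the 3 arrays. Together they had 16 probes, of which 9, for 9 genes, were on all 3 arrays.

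RNA came from male Wistar rats, from the common carotid artery as a whole, and the arteries were taken 7 days after balloon injury, 21 days after balloon injury, or without injury. Balloon injury strips the endothelium with an inflated catheter and stretches the smooth muscle wall. No genetic change and no drug was named in the labels, and the age of the animals was not given. There was 1 single-colour array per group, so no test was possible and no p-value is given. The series' design text speaks of 2 experiments per time with different rats, and other arrays were not analysed here.

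Matricellular proteins are secreted into the extracellular matrix but act mainly as signals, by binding cell surface receptors, growth factors, proteases and structural matrix proteins. Several are scarce in quiescent adult arteries and are made by activated smooth muscle cells, fibroblasts and macrophages after injury. Fibronectin is a structural adhesive glycoprotein, and many matricellular proteins bind it or compete with it for integrins.

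Between 59.8% and 76.6% of an array's probes were well above background, and no spot was saturated. Values are scaled signals, meaning background-subtracted spot brightness divided by the 75th percentile of the array, so that 1 is the brightness below which 75% of the probes compared lie. A ratio is the log2 of the quotient of 2 scaled signals. The value after ± is the technical SD of that ratio, estimated from replicate spots, and for probes with 10 spots it is that of their mean. It does not hold the differences between animals. The uninjured and day 21 arrays were of 1 design, here called the older one, and of 1 scan, so these were compared on all 40989 probes. The day 7 array was of another design and scan, so comparisons with it used the 10583 probes found on all 3 arrays and scaled on these. For day 7, time cannot be told apart from array design and scan. In a whole artery, a difference in the number of cells of a type and a difference in RNA per cell cannot be told apart.

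Day 7 against uninjured asks what the artery expressed early after injury. Tenascin C, Comp, osteopontin, periostin, fibronectin and Thbs2 were at least 2-fold higher in the injured artery, and Ccn2 was 5.38-fold lower. Tnc was at least 24.9-fold higher, Comp 8.54-fold (log2 ratio 3.09 ± 0.16), Spp1 7.08-fold (2.82 ± 0.05), Postn 3.49-fold (1.80 ± 0.14) and Fn1 3.13-fold (1.65 ± 0.13). Of the 9 genes compared, 6 were at least 2-fold higher, against 20.2% of 6649 genes, and 1 was at least 2-fold lower, against 17.9%. Their median log2 ratio was 1.65, and that of all genes was 0.12. With the 75th percentile taken over every probe of a design (own-design scaling), the median of all genes moved to -1.23, 4.18% of genes were at least 2-fold higher and 58.2% lower, and 3 of the 9 stayed at least 2-fold higher, with Fn1 at 0.43 and Postn at 0.58. The numbers of genes with a higher ratio, bounds included, were 95 for Comp and 128 for Spp1. Measured from the median of all genes, Fn1 was higher by 1.52 to 1.98 and Postn by 1.67 to 2.01 over the 9 alternatives. Own-design and median scaling shift all genes of an array alike, so they could change this distance only through which genes are counted. Probe choice and dim-probe filter could only repeat the main ratios of Fn1 and Postn, which each had 1 shared probe. These alternatives are therefore no check on the distance.

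Day 21 against uninjured asks the same of the later artery. Comp, osteopontin, tenascin C and fibronectin were higher in the injured artery, Ccn2 was lower, and the other 5 genes were within 2-fold. Comp was 10.8-fold higher (log2 ratio 3.43 ± 0.16), Spp1 7.67-fold (2.94 ± 0.02), Fn1 5.41-fold (2.44 ± 0.13) and Tnc at least 7.28-fold. Ccn2 was 2.46-fold lower (-1.30 ± 0.03). Thus 4 of 10 genes were at least 2-fold higher, against 10.6% of 10316 genes, and 1 was at least 2-fold lower, against 15.5%. The median over the 10 was 0.46, and over all genes it was -0.17. With median scaling 18.7% of genes were at least 2-fold higher and 6.69% lower, and the median of all genes was 0.30.

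**Figure D1:**
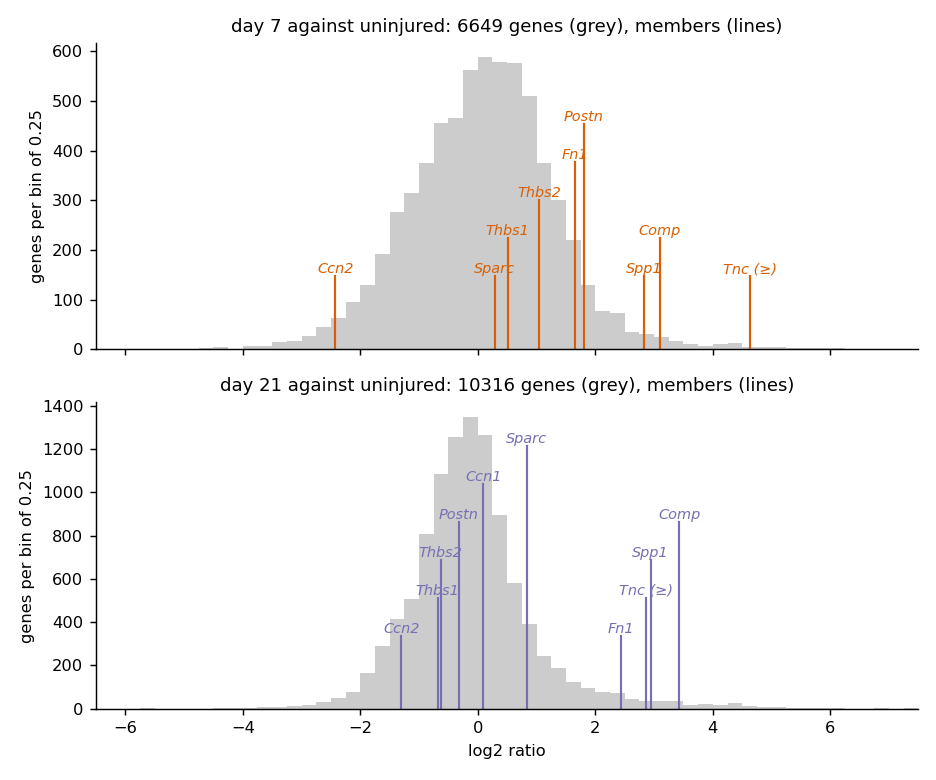
Distribution of log2 ratios over all genes (grey bars, genes per bin of 0.25) with the members marked by lines, at day 7 against uninjured (top, 6649 genes) and day 21 against uninjured (bottom, 10316 genes). A "≥" marks a lower bound. Tnc, Comp and Spp1 lie in the right tail in both plots, while Ccn2 is to the left of the centre in both.

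Day 21 against day 7 sets the injured arteries side by side. Periostin, tenascin C and Thbs1 were lower at day 21, whereas osteopontin and Comp were close to their day 7 signals. Postn was 4.84-fold lower (log2 ratio -2.28 ± 0.15) and Tnc 3.82-fold lower (-1.93 ± 0.15). Thbs1 was at -1.33 ± 0.99, from signals close to background. Of the 9 genes compared, none was at least 2-fold higher, against 11.2% of 6794 genes, and 3 were at least 2-fold lower, against 26.6%. Ccn2, at 0.98 ± 0.04, lay just inside the threshold and passed it in 6 of 9 alternatives. The rest, of probe choice and dim-probe filter, could only repeat the main value, because Ccn2 had no further probe. Under own-design scaling the median of all genes was 1.14 in place of -0.23, 55.2% of genes were at least 2-fold higher and 6.59% lower, 5 of the 9 were at least 2-fold higher and none lower, Thbs1 was at 0.04, Comp at 1.56, Fn1 at 2.01 and Spp1 at 1.34.

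**Figure D2:**
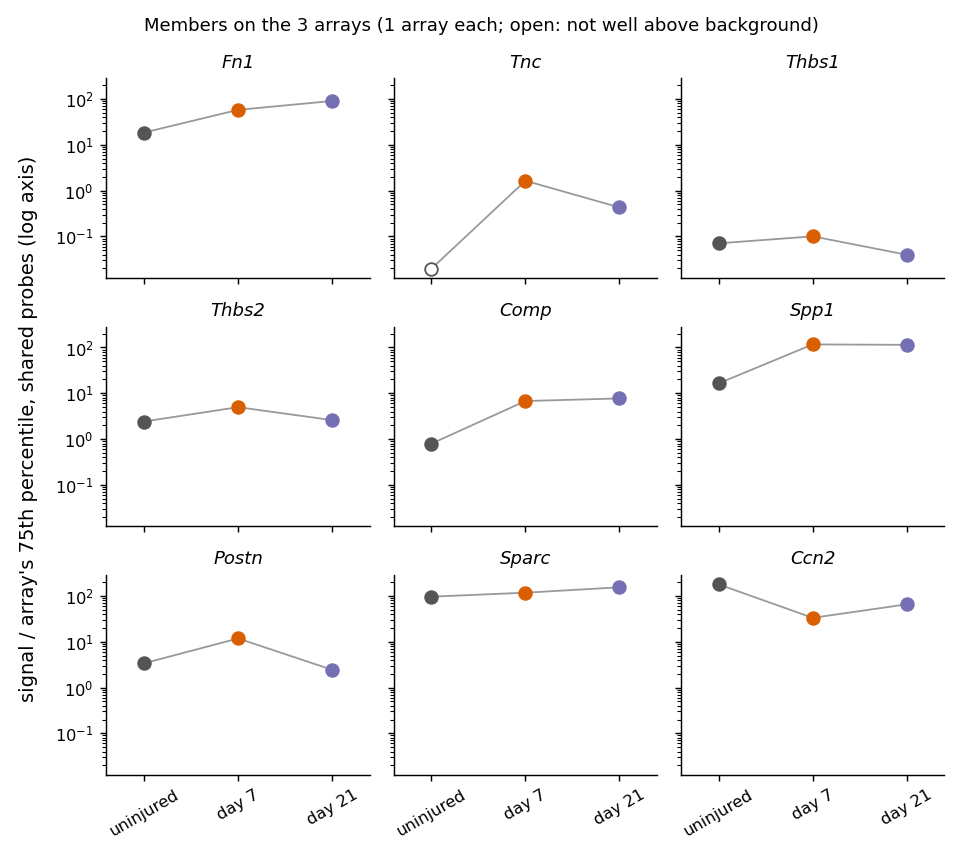
Scaled signal (log axis) of the 9 members with a probe on all 3 arrays, in uninjured, day 7 and day 21 arteries, 1 array each. The open point is a signal not well above background. Spp1 and Comp are high at both times, Postn and Tnc are highest at day 7, and Ccn2 is lowest at day 7.

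Fibronectin, the adhesive scaffold of the list, was read at the same probe on all 3 arrays. Its scaled signal was 18.5 in the uninjured artery, 58.0 at day 7 and 90.7 at day 21 on the shared probes. It was therefore higher at each later time, and the step between day 7 and day 21 was 0.64 ± 0.15 on the log2 scale. A further probe with 10 spots per array was on the older design only. There the scaled signal on all probes was 110.2 at day 21, against 15.9 in the uninjured artery, and the raw brightness of the 10 spots ran between 13704 and 17363 at day 21, against 731 and 874 in the uninjured artery. The spots of the 2 arrays did not overlap, and this probe gave a log2 ratio of 2.79 ± 0.05, close to the 2.44 ± 0.13 of the other.

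Tenascin C, a large glycoprotein that loosens adhesion of cells to fibronectin, had a raw signal of 2.49 brightness units in the uninjured artery, which was not well above background. The raw signal was 379 at day 7 and 165 at day 21, both well above background. On the shared probes this was a scaled signal of 1.64 at day 7 and 0.430 at day 21. The gene was thus detected in both injured arteries and not in the uninjured one, and its folds against uninjured are bounds set by the dimmest signal well above background. A second Tnc probe, on the older design only, was not well above background on either array. It was at 2.57 in the day 21 artery and 1.95 in the uninjured artery. The results at day 7 and at day 21 thus each rest on the same 1 probe, with 1 spot per array. With normexp background correction, which adds an offset to all signals, the log2 ratio of Tnc was at least 2.08 at day 7 and at least 0.92 at day 21.

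The thrombospondins differed in pattern. Comp (thrombospondin 5), a pentameric protein of cartilage and tendon that is also made by smooth muscle cells, had scaled signals of 0.793 in the uninjured artery, 6.77 at day 7 and 7.72 at day 21. Both injured arteries were well above the uninjured one, and they differed from each other by a log2 ratio of 0.19 ± 0.15. Thbs2, a trimeric thrombospondin that limits angiogenesis, had 2.42, 4.97 and 2.59 in the same order, so that only the day 7 value stood apart. Its ratio at day 7, 1.04 ± 0.14, lay just past the 2-fold threshold and turned to -0.18 under own-design scaling and to -0.61 in the authors' deposited table. At day 21 its probes disagreed in sign, with -0.63 ± 0.13 at the brighter and 0.25 ± 0.15 at the dimmer. Thbs1, an activator of latent TGF-beta, was dim at its only probe, with raw signals of 8.97 in the uninjured artery, 23.1 at day 7 and 15.3 at day 21. The lowest signals well above background were 8.31, 8.23 and 9.22 on these arrays, so that the Thbs1 probe gave little information, with SDs of 0.55 or more for its ratios.

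Osteopontin, a phosphorylated glycoprotein that binds integrins and CD44 and is made by macrophages and activated smooth muscle cells, had 10 spots on every array. Their raw brightness ran between 2012 and 2193 in the uninjured artery, between 22684 and 30702 at day 7, and between 41350 and 46313 at day 21. Scaled signals on the shared probes were 16.5, 116.6 and 114.2 in the same order. The injured arteries were both far above the uninjured one and differed from each other by -0.03 ± 0.05, which is within the spot error. Over the 9 alternatives its ratio against uninjured stayed between 1.60 and 3.32 at day 7 and between 2.79 and 3.53 at day 21. Spp1 had no further probe, so the alternatives of probe choice and dim-probe filter could only repeat the main value.

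Periostin, a fasciclin-domain protein that promotes collagen assembly and is made by activated fibroblasts and smooth muscle cells, had scaled signals of 3.38 in the uninjured artery, 11.8 at day 7 and 2.43 at day 21. Only the day 7 artery stood apart. On all probes of the older design Postn was at -0.33 ± 0.14 at day 21 against uninjured, and 0.16 with normexp. Sparc, which binds collagen and modulates adhesion, had 96.2, 117.5 and 154.4 in the same order. Its log2 ratio was 0.29 ± 0.13 at day 7 and 0.83 ± 0.13 at day 21 against uninjured. The day 21 value passed the 2-fold threshold in 5 of 9 alternatives, up to 1.48. Sparc had no further probe, so the alternatives of probe choice and dim-probe filter could only repeat the main value. Of the other alternatives, only that on the probes of all 3 arrays did not pass, at 0.68. At day 7 Sparc was at -0.93 under own-design scaling.

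**Figure D3:**
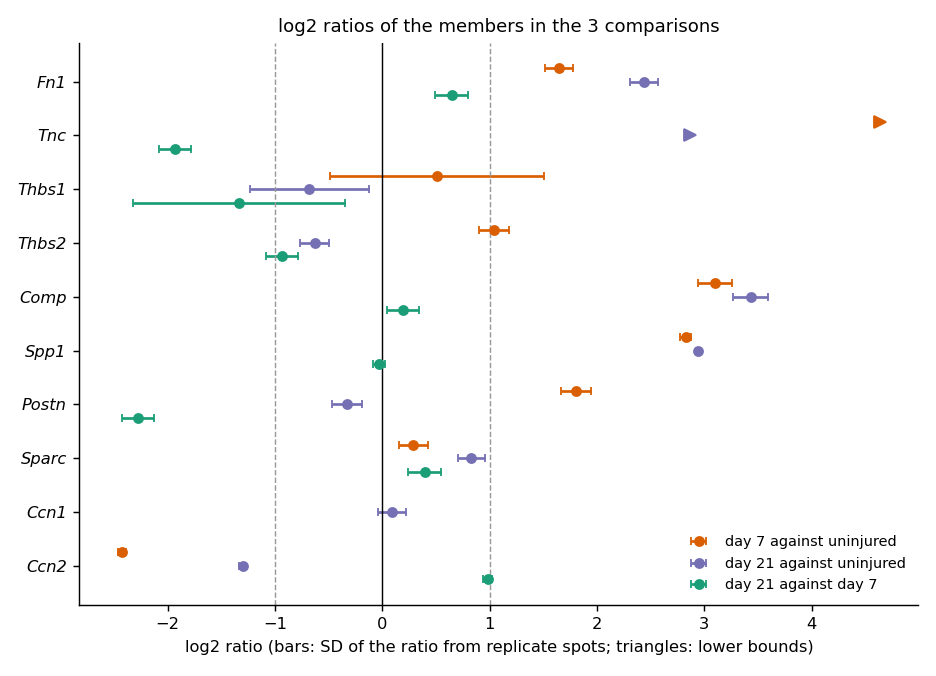
The log2 ratios of the 10 genes in the 3 comparisons. Bars are the SD of the ratio from replicate spots, triangles are lower bounds, and dashed lines mark 2-fold. Comp and Spp1 are to the right at both times, Postn is on opposite sides of 0 at day 7 and day 21 against uninjured, and Thbs1 has the widest bars.

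The CCN proteins are cysteine-rich regulators that bind integrins and heparan sulphate, and Ccn1 (Cyr61) and Ccn2 (connective tissue growth factor) are standard target genes of the mechanosensitive YAP and TAZ coactivators, which act through TEAD transcription factors. Ccn2 had 10 spots on each array, with raw brightness between 20597 and 23694 in the uninjured artery, between 6877 and 8614 at day 7, and between 22931 and 27643 at day 21. Scaled signals on the shared probes were 178.6, 33.2 and 65.5 in the same order. Both injured arteries lay below the uninjured one, with the day 7 artery the lower. The raw brightness at day 21 overlapped that of the uninjured array, so the day 21 difference comes with the scaling, whose 75th percentiles on the shared probes were 127 in the uninjured artery, 230.4 at day 7 and 384 at day 21. The ratio at day 7 was -2.43 ± 0.04 and was beyond 2-fold in 9 of 9 alternatives. At day 21 the sign was kept in 9 of 9 alternatives but the 2-fold threshold in 4. Ccn2 had no further probe, so the alternatives of probe choice and dim-probe filter repeated the main value at both times. Of the other alternatives, only that on the probes of all 3 arrays kept the day 21 threshold, at -1.45. The day 21 value nearest to 0 was -0.67 with cyclic loess.

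Ccn1 had no probe on all 3 arrays, and its probes of the older design disagreed. At the brighter, the scaled signal was 108.2 at day 21 and 101.5 in the uninjured artery, a log2 ratio of 0.09 ± 0.13. At the dimmer, it was 29.5 at day 21 and 0.507 in the uninjured artery, a ratio of 5.86 ± 0.20, or 58.2-fold. The difference between these ratios, 5.77, was larger than that of any other of the 1784 genes with several probes measured on both arrays, where the median difference was 0.46. A statement on Ccn1 at day 21 therefore depends on the probe, and the cause was not tested.

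**Figure D4:**
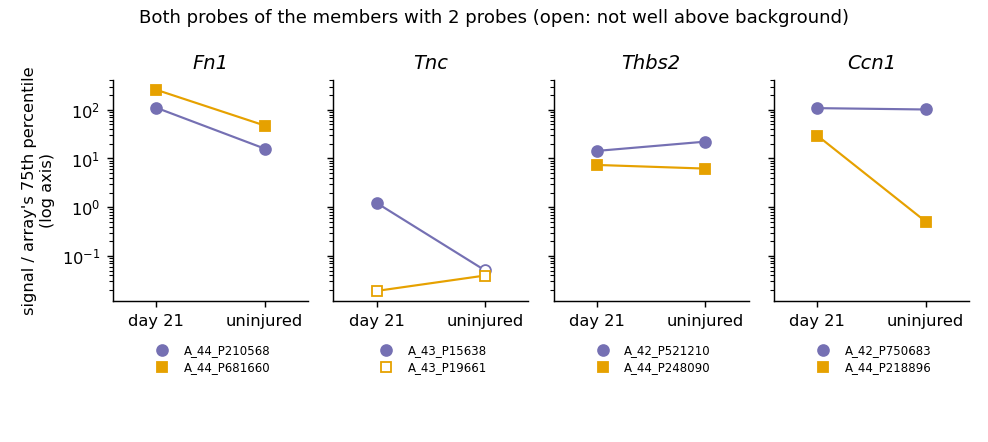
Scaled signal (log axis) at both probes of the 4 members with 2 probes on the older design, at day 21 (left) and in the uninjured artery (right), 1 array each. Open points are not well above background. The Fn1 probes run in parallel, the Thbs2 probes differ in direction, and 1 Ccn1 probe is level while the other differs by 58.2-fold.

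The promoters of this pair are shown because both genes are standard TEAD targets. They are given 5′ to 3′ on the strand of the gene, from 250 bases before to 50 bases after the RefSeq start of the GRCr8 assembly, for Ccn1 at chr2:237225640-237225939 and for Ccn2 at chr1:22624565-22624864, both on the minus strand. Capitals mark the TEAD motif CATTCC, on either strand, and the TATA box TATAAA, and no matches overlap.
Ccn1: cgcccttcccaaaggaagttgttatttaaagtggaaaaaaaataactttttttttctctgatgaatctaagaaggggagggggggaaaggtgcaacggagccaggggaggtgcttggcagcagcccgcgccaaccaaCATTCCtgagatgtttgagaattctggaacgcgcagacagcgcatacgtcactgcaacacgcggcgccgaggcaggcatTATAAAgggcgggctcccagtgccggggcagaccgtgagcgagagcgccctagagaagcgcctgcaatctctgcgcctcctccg
Ccn2: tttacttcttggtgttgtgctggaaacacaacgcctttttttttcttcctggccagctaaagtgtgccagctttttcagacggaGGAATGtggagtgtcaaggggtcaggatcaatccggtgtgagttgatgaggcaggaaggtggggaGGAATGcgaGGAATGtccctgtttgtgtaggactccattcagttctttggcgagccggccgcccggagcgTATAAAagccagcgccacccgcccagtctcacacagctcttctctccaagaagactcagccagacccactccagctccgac
Ccn2 held 3 TEAD matches, at -166, -101 and -92 from the start, and Ccn1 held 1, at -113. At least 1 TEAD match was found in 14.2% of 33469 promoters of this length, and 3 or more in 0.0956%. A TATA box stood at -31 in Ccn2 and at -34 in Ccn1, and TATAAA was in 14.2% of promoters. Promoter sequences were matched for 8 of the 10 genes, of which 4 held a TEAD match and 5 a TATAAA. The AP-1 motif TGANTCA and the SRF-binding CArG box were in none of the 8 windows, against 7.33% and 1.64% of all promoters, and the RUNX motif TGTGGT was in 1, against 17.3%. All motifs were searched on both strands.

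The counts of related genes are to be read beside the shares of all genes past 2-fold, which were 20.2% upwards and 17.9% downwards at day 7, and 10.6% and 15.5% at day 21. Genes of the YAP, TAZ and SRF pathways and their targets had medians below that of all genes. At day 7, 2 of 14 measured passed 2-fold upwards and 4 downwards, with a median log2 ratio of -0.32, against 0.12 for all genes. Srf itself, the transcription factor of contractile and immediate-early genes, was at -1.91 ± 0.13 and the focal adhesion gene Vcl (vinculin) at -2.90 ± 0.08. The TEAD family gene Tead2 was at least 5.59-fold higher and Fhl2 was at 1.24 ± 0.18. At day 21, none of 22 passed 2-fold upwards and 6 did downwards, with a median of -0.22 close to the -0.17 of all genes. The lowest were Flna (filamin A, -1.98 ± 0.13) and Myocd (the smooth muscle coactivator myocardin, -1.64 ± 0.19). Ankrd1, another standard YAP target, was at -0.42 ± 1.12 at day 7, within its error. At day 21 it was at -0.35 ± 0.35, about the size of its error. It was chosen after its values were seen.

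TGF-beta induces Fn1, Tnc, Postn and Ccn2 in many mesenchymal cells. Of its ligands, receptors and induced genes, 3 of 11 measured passed 2-fold in each direction at day 7, with a median of -0.12. Tgfb1, the main ligand gene, was at 1.88 ± 0.06 and the induced matrix gene Tgfbi at 2.19 ± 0.14, whereas the feedback inhibitor gene Smad7 was at -2.29 ± 0.11. At day 21, 3 of 20 passed 2-fold upwards and 5 downwards, with a median of -0.31. Tgif1 (2.03 ± 0.20) and Bhlhe40 (1.74 ± 0.17) were the highest, and the ligand gene Tgfb3 was at -1.94 ± 0.13. With lists of this size these counts do not set the TGF-beta genes apart from the shares of all genes.

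Other matricellular genes, like genes at large, included some past 2-fold in each direction. At day 7, 5 of 17 measured passed 2-fold in each direction, with a median of 0.05, and at day 21, 5 of 22 did so upwards and 6 downwards, with a median of -0.30. The adhesive plasma glycoprotein gene Vtn had a log2 ratio of at least 3.45 at day 7 and at least 2.78 at day 21, and the tenascin gene Tnn one of at least 2.94 at day 7. Sparcl1, the closest relative of Sparc, was lower at both times (-2.96 ± 0.09 at day 7 and -2.51 ± 0.13 at day 21), and the testican gene Spock2 was at -3.59 ± 0.15 at day 21. Within the CCN family Ccn5 was higher at both times, at 2.57 in each comparison with uninjured. At day 21 Ccn4 was at 1.52, Ccn6 at -1.46 and Ccn3 at -2.13. Ccn3, Ccn4, Ccn6 and the day 7 value of Ccn5 were chosen after their values were seen. The CCN genes measured at day 21 thus lay on both sides of 0.

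Receptors for these proteins include integrins, CD44, CD47 and syndecans. Of 11 measured at day 7, 3 passed 2-fold upwards and 1 downwards, with a median of 0.62, and of 15 at day 21, 5 and 4 did, with a median of 0.45. The leukocyte integrin genes Itgb2 and Itgam, which are also leukocyte markers, had log2 ratios of at least 7.22 and 4.04 at day 21. The smooth muscle integrin gene Itga8, whose product binds fibronectin, osteopontin and tenascin C, was at -1.91 ± 0.49 at day 7 and -1.23 ± 0.17 at day 21, read at different probes. Cd44, a receptor of osteopontin, had a scaled signal of 56.6 at day 21 and 8.77 in the uninjured artery, a ratio of 2.69. It was chosen after its values were seen.

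**Figure D5:**
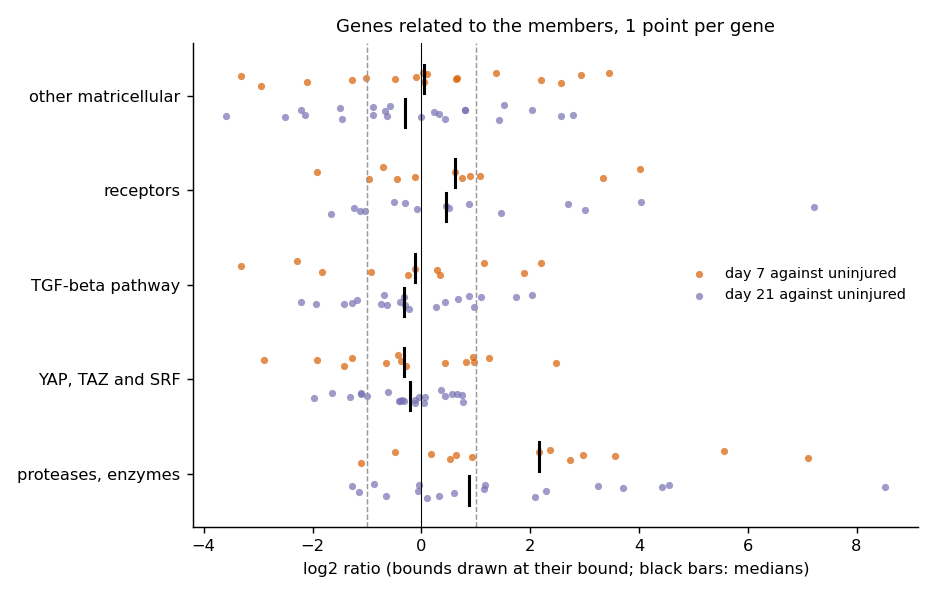
The log2 ratios of genes related to the members, 1 point per gene, at day 7 (orange) and day 21 (purple) against uninjured, by list. Black bars are medians and dashed lines mark 2-fold. The protease list has its medians at 2.16 and 0.87, above those of the other lists at the same time.

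Proteases and enzymes that cut, cross-link or phosphorylate these proteins had the highest medians of the lists of related genes. At day 7, 7 of 13 passed 2-fold upwards and 1 downwards, with a median of 2.16, and at day 21, 9 and 2 of 18 did, with a median of 0.87. The macrophage elastase gene Mmp12 was higher by at least 138-fold at day 7 and by at least 370-fold at day 21, and Mmp7, which cleaves osteopontin, at least 47.2-fold at day 7. The urokinase gene Plau was at least 23.4-fold higher at day 21. Bmp1, a procollagen protease, was at -1.14 ± 0.13 at day 21. Of the transcription factor genes of the AP-1, RUNX and other families linked to Spp1, 3 of 11 passed 2-fold upwards and 2 downwards at day 21, with a median of 0.61, Runx1 at 2.27 ± 0.18 and Jund at -1.90 ± 0.13. On the shared probes 2 of them were measured and neither passed 2-fold at day 7.

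Between the injured arteries, day 21 against day 7, the medians were -0.37 over 17 other matricellular genes, 0.18 over 11 receptors, 0.09 over 11 TGF-beta genes, -0.48 over 14 YAP, TAZ and SRF genes and -0.03 over 13 proteases, against -0.23 for all genes. The galectin gene Lgals3 was at 1.83 ± 0.15, Itgb2 at 3.05 ± 0.11 and Smad7 at 1.82 ± 0.13. Tgfbi was at -1.91 ± 0.15, the fibronectin receptor gene Itga5 at -1.73 ± 0.14 and the Comp-degrading protease gene Adamts7 at -1.61 ± 0.15. Each list held genes on both sides of 0.

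Cell type markers differed between the same arrays. The summed scaled signal of 11 macrophage genes was 10.8 in the uninjured artery, 141 at day 7 and 383 at day 21, and 10 of them passed 2-fold upwards at day 7. At day 21, 15 of 15 macrophage genes measured did. The log2 ratio of Spp1 between the injured arteries was -0.03, and 1.34 under own-design scaling, which shifts the macrophage genes alike. A link of Spp1 to the macrophage genes was not tested. Itgb2 alone among the 11 was dim in the uninjured artery. Contractile smooth muscle genes had sums of 172, 37.2 and 28.2 over 4 genes in the same order. Most of each sum was Tagln, with 151, 33.0 and 26.1. At day 7, 3 of 4 passed 2-fold downwards, and Lmod1 was at 0.30 ± 0.27. At day 21, 10 of 10 measured passed 2-fold downwards. Fibroblast genes had sums of 91.4, 81.8 and 60.8 over 5 genes that differed in direction. Of these, Mfap5 had scaled signals of 35.6, 49.4 and 7.67 in the same order, whereas Lum and Pdgfra were higher at day 21 than at day 7 by log2 ratios of 1.17 ± 0.15 and 1.52 ± 0.11. At day 7, none of the 5 passed 2-fold upwards and 1 did downwards, and at day 21, 2 of 8 measured did upwards and 3 downwards. The sums were 2.09, 8.27 and 8.26 over 6 endothelial genes, of which Tek and Tie1 were dim in the uninjured artery. All 6 passed 2-fold upwards at day 7. At day 21, 6 of 8 endothelial genes measured did, and the rest, not among those summed, were within 2-fold. Schwann cell genes had sums of 1.24, 18.4 and 0.674 over 6 genes. Of these, 4 were well above background in the uninjured artery (S100b and Prx were not), 5 at day 7 and 3 at day 21. At day 7, 5 of 5 Schwann cell genes measured passed 2-fold upwards, and at day 21, 3 of 7 did downwards and none upwards. Their sum was high on the day 7 array alone, which was of another design and scan. Skeletal muscle genes had 3.82, 3.76 and 2.59 over 3 genes, which differed in direction at day 7, where 1 passed 2-fold upwards and 1 downwards. At day 21, 4 of 7 skeletal muscle genes measured passed 2-fold downwards and none upwards. The part of these cell types in the values of the 10 genes was not tested.

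By pattern over the 3 arrays, the genes nearest to Comp, which had the highest ratio at day 21 among members well above background on all arrays, were Nrros, Lcn2 (lipocalin 2) and Adgrf5, at distances of 0.09, 0.10 and 0.24 on the log2 scale among 5175 genes. Those nearest to Ccn2, which had the lowest, were Coq10b, Or10j3b and C2cd2, at 0.08, 0.10 and 0.11. The distance is Euclidean over the ratios of day 7 and day 21 against uninjured, which share the uninjured array.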

How the data were processed

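The members and the gene lists were chosen with earlier results of these data known. Per the file headers, intensity values came from Agilent Feature Extraction, in which each spot is corrected for background and spatial trend within its array, with no normalization across arrays. The headers give version 10.7.3.1 for 2 arrays (uninjured, day 21) and 11.0.1.1 for day 7. A table deposited by the authors has 9260 probes on a log2 scale, running in the direction of the scanner signals (r across probes 0.947 to 0.969), and its column medians are 7.64 (uninjured), 7.62 (day 7) and 7.64 (day 21). No source used here says how it was normalized or centred. Of these probes, 3957 had no signal on the uninjured array and 3959 none on the day 21 array.

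Control spots and outlier spots (0.242%, 1.46% and 0.274%) were left out, spots of a probe averaged on the log2 scale, and the 75th percentile subtracted. Accessions were matched without versions to RefSeq names of GRCr8, for 17505 probes (42.7%) of the older design and 8032 (75.9%) of the shared probes. A gene was read at its probe with the highest mean signal. Where the signal was not well above background on 1 array, the ratio is a bound against the higher of that signal and the array's lowest signal well above background. The SD comes from probes with at least 5 spots, interpolated over brightness in 12 bins, and from the probe's own spots where it has that many. Named genes of other lists are up to 2 per direction, by size of ratio, beyond 2-fold, unless stated otherwise. A gene that this rule names is not reported here. Alternatives were background correction (normexp, offset 50, on the median signal in place of the planned mean signal), scaling, probe choice, dim-probe filter and the deposited table. Python 3.11.15, R 4.3.3 and limma 3.58.1 were used.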

Additional observations from a re-analysis of the deposited data

Results flagged for a closer look

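Probes found only on the day 7 design entered no comparison. On that array a Ccn1 probe had a raw signal of 861 and an Fn1 probe one of 81.0 brightness units, both above 8.23, the lowest signal well above background there. The Fn1 probe compared above had 13373 on the same array. The authors' deposited table lists the same Ccn1 probe for all 3 arrays, with a log2 difference of -2.67 at day 7 and 0.70 at day 21 against uninjured. No source used here says how values arose for arrays without that probe.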

How the results depend on the processing

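No paired analysis was possible because each group has 1 array. Of the genes at least 2-fold higher at day 7 against uninjured, 6 in the main setting, 3 were left under own-design scaling, and 4 of 7 compared genes in the authors' deposited table. The count lower at day 21 against uninjured, 1, was 0 with normexp, median scaling, quantile normalization, cyclic loess and the authors' deposited table. At day 21 against day 7, the count higher, 0, was 1 with normexp, quantile normalization and cyclic loess, 2 with median scaling and the authors' deposited table, and 5 with own-design scaling, while the count lower, 3, was 0 with own-design scaling. It was 1 of 7 compared genes in the authors' deposited table, where Postn was lower and Tnc and Thbs1 were not compared. Called values that changed sign were Thbs2 at day 7 (-0.61 in the authors' deposited table and -0.18 with own-design scaling) and Thbs1 between the days (0.0362 with own-design scaling). The causes were not tested. Reading genes at their dimmest probe and normexp on the median signal were alternatives chosen after seeing the data, and at its dimmest probe Ccn1 was at 5.86 at day 21. The median of all genes at day 21 against uninjured lay between -0.32 and 0.30 over the alternatives. With 1 array per group, differences between animals are not measured, and genes near background, such as Thbs1, have wide errors.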
